A study of Mus musculus with 130 samples.

Results

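The replication-dependent histone genes were taken as every gene whose symbol starts with Hist1h, Hist2h, Hist3h or Hist4h, or carries the matching newer names of the H1f, H2ac, H2bc, H3c and H4c series. Of the 52550 genes in each table, 70 symbols matched, 3 of them pseudogenes that were left out, and 67 members remained: 6 H1, 18 H2A, 18 H2B, 12 H3 and 13 H4 genes. The rule used names only and no measured value. These genes encode the linker histone H1 and the core histones H2A, H2B, H3 and H4, which package newly copied DNA, and they are transcribed mainly in S phase. Their messenger RNAs end in a stem-loop bound by SLBP instead of a poly(A) tail. Embryonic stem cells pass a large share of their cycle in S phase. G9a and its partner GLP place methyl groups on histone H3 lysine 9, so the members also encode the substrate of the enzymes mutated or inhibited here.

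RNA was sequenced in 10 libraries of mouse embryonic stem cells grown on gelatin with serum and LIF, 1 library for each group, so no replicate spread could be measured and no test between conditions was possible. The TT2 line (C57BL/6 x CBA) gave WT TT2, a G9a-/- line with a transgene of catalytically mutant G9a (Y1120V;Y1207F, clone G7; called G9a CM), and clone 248-6, labelled G9a-/-;GLP-/- (the library labelled G9a/GLP DKO). The J1 line (129S4/SvJae) gave WT J1, a Dnmt3a/3b-/- line (Dnmt3a/3b DKO) and a Dnmt1/3a/3b-/- line (Dnmt1/3a/3b TKO), which lack DNA methyltransferases. Wild-type TT2 cells also received UNC0638, an inhibitor of G9a and GLP, and were collected on day 2, 4 or 14, beside a DMSO-treated library called the inhibitor control. The titles give the dose as 250 nM and the treatment protocol as 250 µM, and neither the day of the control nor whether treatment lasted all 14 days is stated. Each mutant is a single line, so genotype, clone and library cannot be told apart.

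Total counts ran from 11436821 to 25609607 per library. CPM are counts scaled to the effective library size, and intervals are exact 95% intervals of the counts that cover counting error only, since without molecular identifiers PCR copies cannot be told from separate molecules. Ehmt2, which encodes G9a, was at 14.6 CPM for WT TT2, against 27.8 for G9a CM and 17.9 for the library labelled G9a/GLP DKO, where Ehmt1, which encodes GLP, was 4.81-fold lower than in WT TT2. Dnmt3a and Dnmt3b were 4.04-fold and 8.83-fold lower in Dnmt3a/3b DKO than their WT J1 levels, and Dnmt1 was 7.34-fold lower in Dnmt1/3a/3b TKO. All 10 embryonic stem cell markers checked, such as Pou5f1 and Nanog, were at 1 CPM or more in every library, and 10 fibroblast markers summed to 4.24 to 14.4 CPM. By the rule given below, 3 of the 10 stem cell markers were higher and 3 lower in the inhibitor control than in WT TT2. Of all measured genes, 25.2% and 22% were. Pou5f1 differed most among these markers, at 455 against 12.5 CPM. The 4 inhibitor libraries stood apart from the other 6: 29 S-phase genes summed to 9538 to 12395 CPM in them and to 4289 to 5283 CPM in the rest, although WT TT2 and the inhibitor control are the same wild-type line.

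The members held a small share of each library. Together they took 0.0105% to 0.0430% of the counts, and their summed level was 429 CPM in wild-type TT2 cells against 419 for G9a CM and 304 for the library labelled G9a/GLP DKO, 432 in wild-type J1 cells against 258 for Dnmt3a/3b DKO and 314 for Dnmt1/3a/3b TKO, and 114 in the inhibitor control against 162, 118 and 132 at UNC0638 days 2, 4 and 14. In CPM the 6 libraries outside the inhibitor series were all above the 4 inhibitor libraries. In summed TPM they were not: day 2 was at 514, above WT J1 (472), Dnmt3a/3b DKO (431) and Dnmt1/3a/3b TKO (502). The deposited libraries were made by Smart-seq2, which starts cDNA from poly(A) tails, so these levels count only the histone RNA that this method captured, and how much of it came from tailed forms was not tested. In bulk samples, fewer cells in S phase and less histone RNA per cell cannot be told apart. For comparison, 11 genes listed as replication-independent histone genes, whose messages mostly carry a poly(A) tail, summed to 4398 to 8965 CPM.

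Of the 67 members, 49 reached 1 CPM in at least 1 library and 10 did so in all 10: Hist1h2ae, Hist1h4d, Hist1h1b, Hist1h2bc, Hist1h4i, Hist1h1e, Hist1h1c, Hist3h2a, Hist2h2ac and Hist1h2ak. No H3 gene was in that set. Among the 49, 28 had their highest level in G9a CM, 7 in WT J1, 6 in WT TT2 and 6 in Dnmt1/3a/3b TKO, and 15 had their lowest in the inhibitor control and 15 on day 4 of UNC0638. By class, 5 of 6 H1 genes, 11 of 18 H2A, 13 of 18 H2B, 10 of 12 H3 and 10 of 13 H4 genes reached 1 CPM somewhere. 6 members were listed at 0 in all 10 libraries: Hist1h2ao, Hist2h2aa1, Hist2h2aa2, Hist1h2bq, Hist1h2br and Hist1h4m. A count of 0 allows up to 3 counts, which is 0.118 to 0.236 CPM depending on the library, and genes of a histone class are near-identical in coding sequence, so a 0 can depend on how reads were shared out.

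**Figure D1:**
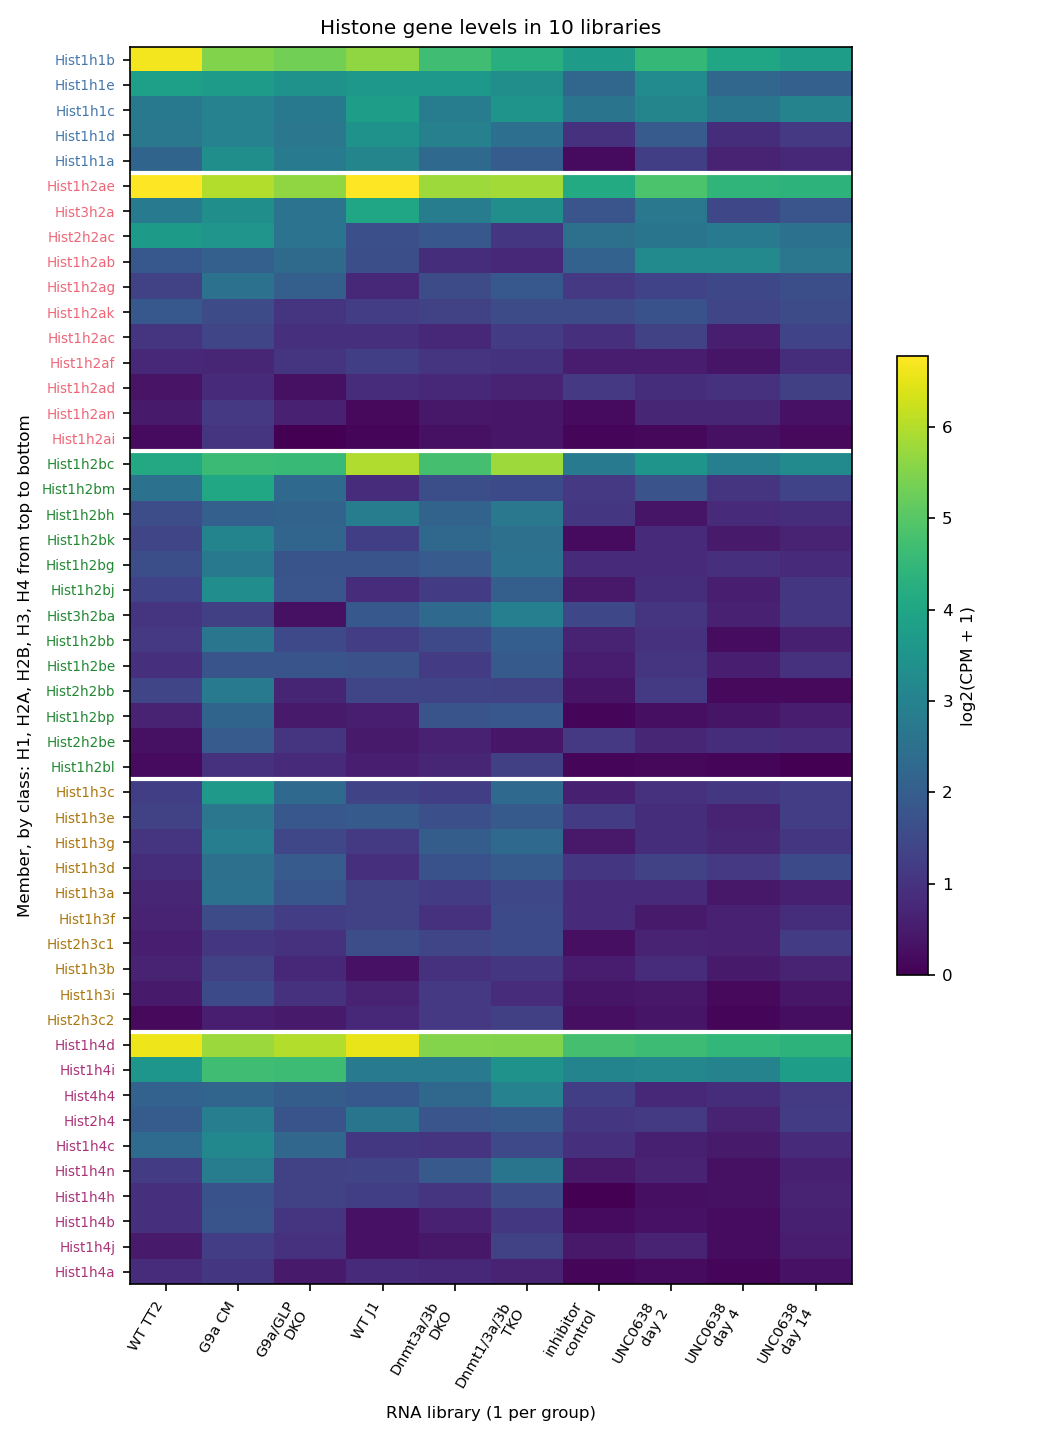
Levels of the 49 members that reached 1 CPM in at least 1 library, as log2(CPM + 1) by colour, with members in rows by class and the 10 libraries in columns. Hist1h1b, Hist1h2ae and Hist1h4d are the brightest rows, and the G9a CM column is brighter than the WT TT2 column over most H2B and H3 rows.

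Among the linker histones, Hist1h1b was the most abundant. It was at 99.1 CPM in wild-type TT2 cells against 44.1 for G9a CM and 39.5 for the library labelled G9a/GLP DKO, 49.1 in wild-type J1 cells against 24.8 for Dnmt3a/3b DKO and 18.3 for Dnmt1/3a/3b TKO, and 12.1 in the inhibitor control against 21.9, 14.7 and 12.9 at UNC0638 days 2, 4 and 14. It was highest in WT TT2 and lower in each mutant than in the wild type of its line. Hist1h1e was at 13.3 CPM in wild-type TT2 cells against 12.3 for G9a CM and 9.92 for the library labelled G9a/GLP DKO, 11.2 in wild-type J1 cells against 11.1 for Dnmt3a/3b DKO and 9.14 for Dnmt1/3a/3b TKO, and 3.75 in the inhibitor control against 8.55, 3.74 and 3.23 at UNC0638 days 2, 4 and 14. Its 6 values outside the inhibitor series lay close together, and day 2 was the only one of the 4 inhibitor libraries near them. Hist1h1c, whose levels spread least among the 3, was at 5.70 CPM in wild-type TT2 cells against 7.01 for G9a CM and 5.67 for the library labelled G9a/GLP DKO, 12.6 in wild-type J1 cells against 6.28 for Dnmt3a/3b DKO and 10.5 for Dnmt1/3a/3b TKO, and 5.07 in the inhibitor control against 7.53, 5.23 and 7.10 at UNC0638 days 2, 4 and 14. The highest values of Hist1h1c were in WT J1 and Dnmt1/3a/3b TKO. The summed H1 level was 127 CPM in wild-type TT2 cells against 80.1 for G9a CM and 66.6 for the library labelled G9a/GLP DKO, 90.4 in wild-type J1 cells against 52.9 for Dnmt3a/3b DKO and 45.5 for Dnmt1/3a/3b TKO, and 22.0 in the inhibitor control against 42.3, 25.2 and 25.1 at UNC0638 days 2, 4 and 14, so it was highest in WT TT2.

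Hist1h2ae led the H2A class and the whole set. Its level was 108 CPM in wild-type TT2 cells against 62.2 for G9a CM and 49.2 for the library labelled G9a/GLP DKO, 107 in wild-type J1 cells against 54.0 for Dnmt3a/3b DKO and 55.5 for Dnmt1/3a/3b TKO, and 16.7 in the inhibitor control against 27.8, 20.6 and 20.0 at UNC0638 days 2, 4 and 14. The 2 wild-type lines outside the inhibitor series were nearly equal, and each of their mutants was lower. Hist3h2a, in the small Hist3 cluster, was at 6.02 CPM in wild-type TT2 cells against 9.31 for G9a CM and 4.96 for the library labelled G9a/GLP DKO, 15.2 in wild-type J1 cells against 6.33 for Dnmt3a/3b DKO and 9.14 for Dnmt1/3a/3b TKO, and 2.42 in the inhibitor control against 5.60, 1.78 and 2.45 at UNC0638 days 2, 4 and 14, with WT J1 highest. Hist2h2ac, in the Hist2 cluster, was at 11.9 CPM in wild-type TT2 cells against 10.6 for G9a CM and 4.96 for the library labelled G9a/GLP DKO, 2.15 in wild-type J1 cells against 2.57 for Dnmt3a/3b DKO and 1.10 for Dnmt1/3a/3b TKO, and 4.70 in the inhibitor control against 5.24, 5.88 and 4.84 at UNC0638 days 2, 4 and 14. Hist2h2ac separated the lines: WT TT2 and G9a CM were above every J1-derived library. The summed H2A level was 137 CPM in wild-type TT2 cells against 98.9 for G9a CM and 70.7 for the library labelled G9a/GLP DKO, 132 in wild-type J1 cells against 71.1 for Dnmt3a/3b DKO and 75.3 for Dnmt1/3a/3b TKO, and 33.2 in the inhibitor control against 54.7, 42.7 and 41.0 at UNC0638 days 2, 4 and 14.

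The H2B class was led by Hist1h2bc, a gene whose RefSeq model spans 8282 bases, against 794 for Hist1h1b. The length that TPM allows for was shorter, with a median over the libraries of 959 bases, against 546 for Hist1h1b. Hist1h2bc was at 16.0 CPM in wild-type TT2 cells against 23.4 for G9a CM and 22.8 for the library labelled G9a/GLP DKO, 61.8 in wild-type J1 cells against 26.5 for Dnmt3a/3b DKO and 53.7 for Dnmt1/3a/3b TKO, and 5.88 in the inhibitor control against 10.4, 6.60 and 8.20 at UNC0638 days 2, 4 and 14. WT J1 and Dnmt1/3a/3b TKO were the 2 highest libraries. Hist1h2bm was at 4.92 CPM in wild-type TT2 cells against 15.4 for G9a CM and 3.93 for the library labelled G9a/GLP DKO, 0.805 in wild-type J1 cells against 2.09 for Dnmt3a/3b DKO and 1.86 for Dnmt1/3a/3b TKO, and 1.18 in the inhibitor control against 2.34, 1.01 and 1.55 at UNC0638 days 2, 4 and 14, and G9a CM stood above all others. Hist1h2bh was at 2.05 CPM in wild-type TT2 cells against 3.24 for G9a CM and 3.46 for the library labelled G9a/GLP DKO, 6.38 in wild-type J1 cells against 3.47 for Dnmt3a/3b DKO and 5.59 for Dnmt1/3a/3b TKO, and 1.10 in the inhibitor control against 0.305, 0.772 and 0.839 at UNC0638 days 2, 4 and 14, with WT J1 and Dnmt1/3a/3b TKO highest again. Summed over the class, H2B was at 34.9 CPM in wild-type TT2 cells against 88.3 for G9a CM and 46.4 for the library labelled G9a/GLP DKO, 83.6 in wild-type J1 cells against 53.3 for Dnmt3a/3b DKO and 92.7 for Dnmt1/3a/3b TKO, and 14.0 in the inhibitor control against 21.0, 12.8 and 17.4 at UNC0638 days 2, 4 and 14. In CPM, Dnmt1/3a/3b TKO, G9a CM and WT J1 were the 3 highest, and Hist1h2bc alone was 73.9% of the WT J1 sum. In summed TPM, which allows for the length of Hist1h2bc, they were at 151, 233 and 82.2, against 62.7 in WT TT2. WT J1 was then below Dnmt3a/3b DKO (100) and the library labelled G9a/GLP DKO (95.1), so it was no longer among the 3 highest.

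H3 was the least abundant class in every library. Hist1h3c was at 1.38 CPM in wild-type TT2 cells against 11.4 for G9a CM and 4.01 for the library labelled G9a/GLP DKO, 1.61 in wild-type J1 cells against 1.37 for Dnmt3a/3b DKO and 4.00 for Dnmt1/3a/3b TKO, and 0.514 in the inhibitor control against 0.967, 1.13 and 1.36 at UNC0638 days 2, 4 and 14. Hist1h3e was at 1.53 CPM in wild-type TT2 cells against 5.48 for G9a CM and 2.60 for the library labelled G9a/GLP DKO, 2.75 in wild-type J1 cells against 2.15 for Dnmt3a/3b DKO and 2.79 for Dnmt1/3a/3b TKO, and 1.25 in the inhibitor control against 0.865, 0.594 and 1.36 at UNC0638 days 2, 4 and 14. Hist1h3g was at 1.02 CPM in wild-type TT2 cells against 6.48 for G9a CM and 1.73 for the library labelled G9a/GLP DKO, 1.21 in wild-type J1 cells against 2.99 for Dnmt3a/3b DKO and 4.00 for Dnmt1/3a/3b TKO, and 0.367 in the inhibitor control against 0.865, 0.654 and 1.10 at UNC0638 days 2, 4 and 14. All 3 were highest in G9a CM. The H3 sum was 8.02 CPM in wild-type TT2 cells against 41.1 for G9a CM and 18.5 for the library labelled G9a/GLP DKO, 13.2 in wild-type J1 cells against 16.7 for Dnmt3a/3b DKO and 23.2 for Dnmt1/3a/3b TKO, and 6.76 in the inhibitor control against 7.63, 6.06 and 10.1 at UNC0638 days 2, 4 and 14. G9a CM was highest and Dnmt1/3a/3b TKO next, and their intervals (38.1 to 44.2 and 21.1 to 25.5 CPM) did not overlap.

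In the H4 class, Hist1h4d was at 96.5 CPM in wild-type TT2 cells against 53.4 for G9a CM and 63.0 for the library labelled G9a/GLP DKO, 92.8 in wild-type J1 cells against 44.8 for Dnmt3a/3b DKO and 44.1 for Dnmt1/3a/3b TKO, and 26.4 in the inhibitor control against 24.0, 21.4 and 19.7 at UNC0638 days 2, 4 and 14. As for Hist1h1b and Hist1h2ae, both wild-type lines were above their mutants. Hist1h4i behaved differently: it was at 10.9 CPM in wild-type TT2 cells against 25.2 for G9a CM and 24.0 for the library labelled G9a/GLP DKO, 6.11 in wild-type J1 cells against 6.10 for Dnmt3a/3b DKO and 10.1 for Dnmt1/3a/3b TKO, and 7.27 in the inhibitor control against 7.79, 7.19 and 12.9 at UNC0638 days 2, 4 and 14. G9a CM and the library labelled G9a/GLP DKO were the 2 highest, above WT TT2 by more than counting error. Hist4h4, the single member of the Hist4 cluster, was at 3.38 CPM in wild-type TT2 cells against 3.59 for G9a CM and 2.99 for the library labelled G9a/GLP DKO, 2.62 in wild-type J1 cells against 3.77 for Dnmt3a/3b DKO and 7.01 for Dnmt1/3a/3b TKO, and 1.40 in the inhibitor control against 0.713, 0.832 and 1.23 at UNC0638 days 2, 4 and 14. Its highest level was in Dnmt1/3a/3b TKO. H4 summed to 122 CPM in wild-type TT2 cells against 111 for G9a CM and 102 for the library labelled G9a/GLP DKO, 113 in wild-type J1 cells against 64.0 for Dnmt3a/3b DKO and 77.2 for Dnmt1/3a/3b TKO, and 38.3 in the inhibitor control against 36.1, 31.6 and 38.4 at UNC0638 days 2, 4 and 14.

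**Figure D2:**
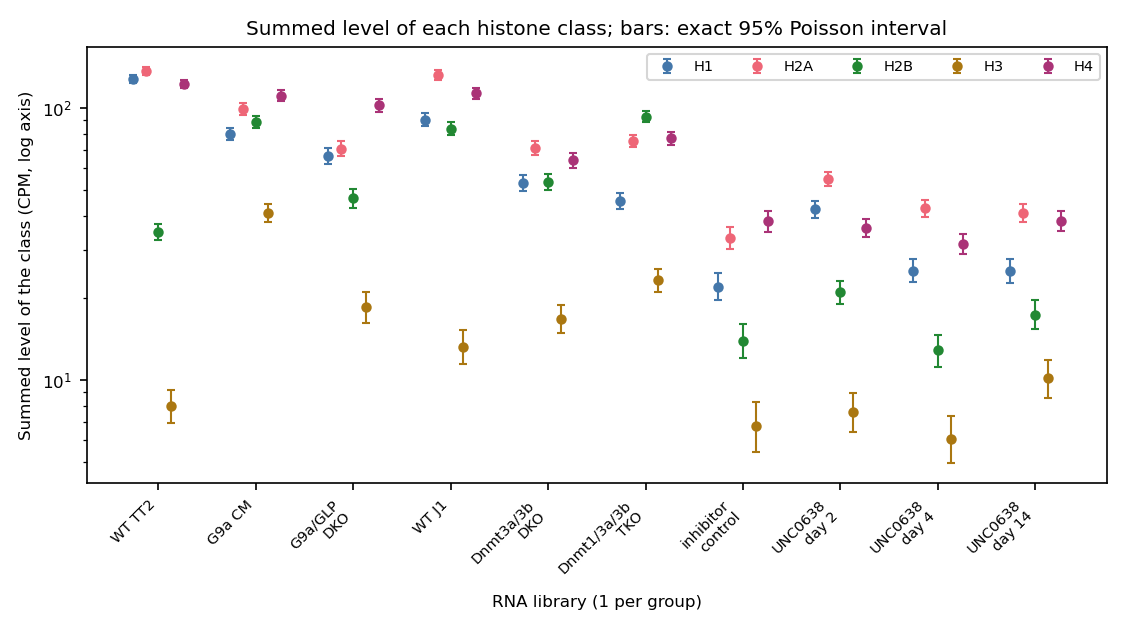
Summed CPM of the H1, H2A, H2B, H3 and H4 members (log axis) in each of the 10 libraries, with exact 95% Poisson intervals of the summed counts as bars. H3 lies lowest throughout, and H2B and H3 stand higher in G9a CM (88.3 and 41.1 CPM) than in WT TT2 (34.9 and 8.02 CPM) while H1 and H2A stand lower.

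The bases just upstream of the start sites are shown for 5 members that the comparisons turn on, because 2 of them (Hist1h1b and Hist1h4d) were lower in mutants and 3 (Hist1h4i, Hist1h3c and Hist1h2bm) higher in G9a CM. They are the 120 bases before the annotated start, read on the gene's strand from RefSeq GRCm38.p6, at chr13:21780626-21780745 (minus strand, Hist1h1b), chr13:23581448-23581567 (plus, Hist1h4d), chr13:22041363-22041482 (minus, Hist1h4i), chr13:23745522-23745641 (minus, Hist1h3c) and chr13:21721924-21722043 (plus, Hist1h2bm). Capitals mark matches on either strand to TATAAA (the TATA box), CCAAT (bound by NF-Y), ATTTGCAT (the octamer bound by OCT1) and its variant ATTTGAAT, GGTCCG (part of the H4 promoter element bound by HINFP) and AAACACA (the H1 box).
Hist1h1b: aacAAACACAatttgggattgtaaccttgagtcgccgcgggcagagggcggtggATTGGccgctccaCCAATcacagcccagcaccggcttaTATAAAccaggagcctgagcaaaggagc
Hist1h4d: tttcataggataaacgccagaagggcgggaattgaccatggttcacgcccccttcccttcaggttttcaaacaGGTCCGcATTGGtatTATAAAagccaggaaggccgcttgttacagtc
Hist1h4i: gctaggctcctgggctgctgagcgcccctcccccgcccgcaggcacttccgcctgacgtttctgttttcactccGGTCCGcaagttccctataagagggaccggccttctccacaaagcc
Hist1h3c: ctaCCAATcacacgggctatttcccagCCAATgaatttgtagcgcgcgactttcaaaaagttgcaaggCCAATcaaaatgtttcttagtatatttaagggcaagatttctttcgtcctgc
Hist1h2bm: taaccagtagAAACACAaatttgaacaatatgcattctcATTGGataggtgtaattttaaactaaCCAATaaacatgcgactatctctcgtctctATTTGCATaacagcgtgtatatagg
Hist1h1b and Hist1h4d have TATAAA 28 and 32 bases before the start, and Hist1h4i has it farther upstream than the bases shown. The 5 were picked by how they differed, and among the measured members with a window TATAAA was, within 250 bases, in 9 of 16 that were higher in G9a CM and in 11 of 24 that were not.

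Promoter windows were found for 62 of the 67 members, and the 250 bases before the start were searched on both strands, beside those of all 32851 RefSeq promoters. CCAAT was in 6 of 6 H1, 18 of 18 H2A, 16 of 16 H2B, 8 of 10 H3 and 3 of 12 H4 windows, and in 33.8% of all promoters. GGTCCG was in 9 of the 12 H4 windows and in 2 of the 50 windows of other classes, against 6.72% of all promoters. AAACACA was in 5 of the 6 H1 windows, against 6.25%. ATTTGCAT was in 7 H2A and 6 H2B windows and ATTTGAAT in 6 and 8, with none in H1, H3 or H4, against 1.6% and 1.12% of all promoters. TATAAA was in 29 of the 62 windows (46.8%) and in 12.4% of all promoters. H2A and H2B windows of head-to-head neighbours overlap, so their matches are shared, and a match to these letters is a description only.

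In 10 places an H2A and an H2B member lie head to head within 500 bases, with gaps of 163 to 280 bases between their starts. Levels of different genes are compared here as deposited TPM, which allows for length. In the pair Hist1h2ae and Hist1h2bg, Hist1h2ae was higher in 10 of 10 libraries, with a mean of 104 TPM against 5.79. In Hist1h2ah and Hist1h2bk the H2B gene was higher in 9 of 10 libraries, 9.13 against 0.626 TPM. Hist1h2ag and Hist1h2bj had like means, 8.88 and 8.61 TPM, but differed within libraries in both directions: 16.7 against 34.2 in G9a CM and 9.94 against 2.94 on day 4 of UNC0638. Neighbours that share 1 gap thus differed in level by up to 18.0-fold among the 8 pairs in which both genes had counts. Means over the 10 libraries describe these libraries and carry no test.
The gap of the most unequal pair and that of Hist1h2ag and Hist1h2bj, the pair in which both genes were higher in G9a CM, are shown on the plus strand, at chr13:23571221-23571399 and chr13:22042950-22043197 (GRCm38.p6), with the same letters in capitals. In both, the H2A gene reads leftward from the first base and the H2B gene rightward from the last.
Hist1h2ae/Hist1h2bg: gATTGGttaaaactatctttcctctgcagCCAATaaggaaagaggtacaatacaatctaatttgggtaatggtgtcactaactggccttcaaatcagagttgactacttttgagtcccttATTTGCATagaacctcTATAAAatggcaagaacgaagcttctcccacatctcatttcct
Hist1h2ag/Hist1h2bj: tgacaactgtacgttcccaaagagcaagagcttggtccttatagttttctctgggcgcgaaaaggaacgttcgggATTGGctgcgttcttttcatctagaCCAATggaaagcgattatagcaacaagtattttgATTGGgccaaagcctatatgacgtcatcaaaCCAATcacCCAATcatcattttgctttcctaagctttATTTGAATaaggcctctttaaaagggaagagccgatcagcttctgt
The first gap holds ATTTGCAT and TATAAA on the strand of Hist1h2bg, the gene with the lower level. The second holds ATTTGAAT on the strand of Hist1h2bj and no TATAAA.

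**Figure D3:**
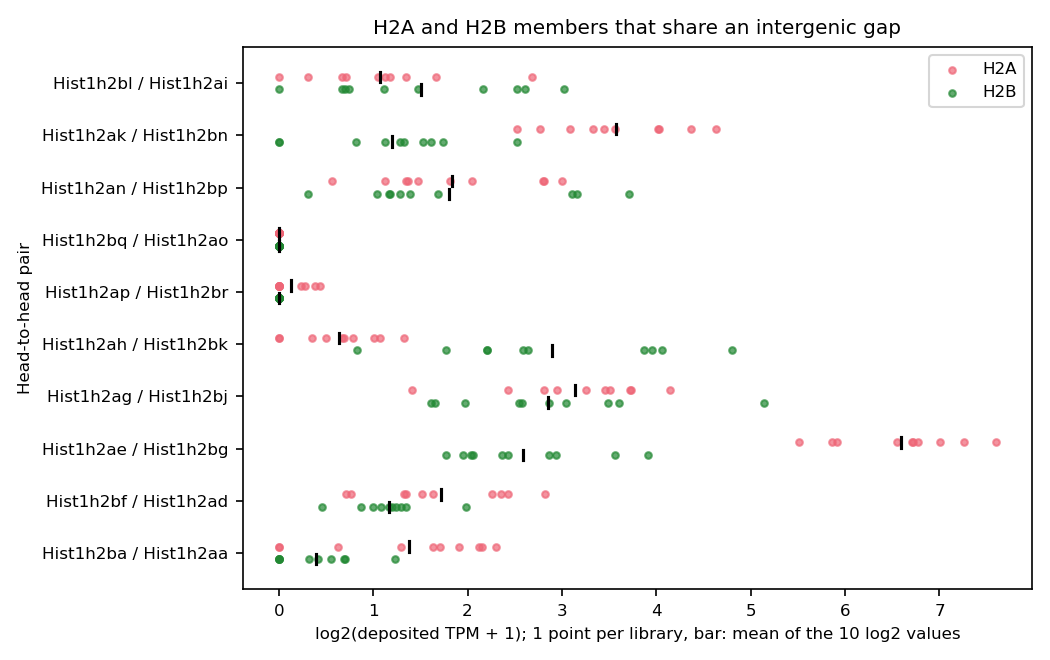
Deposited TPM, as log2(TPM + 1), of the 10 head-to-head H2A and H2B pairs, with 1 point per library and a bar at the mean of the log2 values. Hist1h2ae lies above Hist1h2bg in every library, whereas the points of Hist1h2ag and Hist1h2bj overlap.

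In G9a CM many H2B and H3 genes were higher than in WT TT2, while the 3 most abundant members were lower and the CPM summed over all members differed by less than counting error, although the summed TPM was higher. A member is counted as higher or lower when 1 or both libraries reach 1 CPM, with a log2(CPM + 1) difference of at least 1 and with a count ratio whose exact 95% interval (Clopper-Pearson, conditional on the sum) excludes 1. By that rule 18 of the 45 measured members were higher and 1 was lower, where 5.4% and 5.07% of all 13504 measured genes were. The median difference was 0.82 over the members and -0.03 over all measured genes. 8 of 12 measured H2B genes and 6 of 9 H3 genes were higher, against 2 of 10 H4, 1 of 9 H2A and 1 of 5 H1. A member under 1 CPM in WT TT2 could enter only by being higher. Among the higher H3 genes this holds for Hist1h3a, Hist1h3d and Hist1h3i, at 0.669, 0.865 and 0.393 CPM in WT TT2. Among the higher H2B genes it holds for Hist1h2bp and Hist2h2be, at 0.590 and 0.236 CPM. Only 3 H3 and 9 H2B members reached 1 CPM in WT TT2. The shares of all genes stand beside the counts but do not remove this. The class sums given below are not touched by the minimum. In every comparison below, a member under 1 CPM in 1 library likewise could enter only by being higher in the other.

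On the log2(CPM + 1) scale, which understates the change of low genes, the H3 gene Hist1h3c differed most among the members past the rule, at 11.4 against 1.38 CPM, 8.30-fold higher (95% counting interval 5.77 to 12.3). As a plain fold the H2B gene Hist2h2be differed more, 11.98-fold higher (interval 5.12 to 34.3), on 48 against 6 counts. The levels of Hist1h3g were 6.48 against 1.02 CPM, which is 6.34-fold higher (interval 4.10 to 10.1). Among H2B genes, Hist1h2bj was 5.69-fold higher (interval 3.99 to 8.28) and Hist1h2bk 4.46-fold higher (interval 3.12 to 6.48). Both lie in the same stretch of the Hist1 cluster. Hist1h4n was 4.90-fold higher (interval 3.29 to 7.48) and Hist1h4i 2.32-fold higher (interval 1.99 to 2.71). Hist1h2ag, the head-to-head neighbour of Hist1h2bj, was 3.15-fold higher (interval 2.12 to 4.77), and this was the only one of the 10 pairs in which both genes passed the rule. In 3 other pairs only the H2B gene did (Hist1h2bp, Hist1h2bk and Hist1h2bg). Of the linker histones, Hist1h1a was 2.63-fold higher (interval 2.02 to 3.45) and Hist1h1b 2.25-fold lower (interval 2.07 to 2.44).

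As classes, H3 was 5.12-fold higher (interval 4.37 to 6.01) in G9a CM, H2B was 2.53-fold higher (interval 2.33 to 2.75), whereas H1 was 1.59-fold lower (interval 1.49 to 1.70) and H2A 1.38-fold lower (interval 1.30 to 1.47). H4 was 1.10-fold lower (interval 1.04 to 1.17), and the sum over all members 1.02-fold lower (interval 0.994 to 1.06). On the deposited TPM scale the H4 direction turns, with a log2 ratio of 0.43 in place of -0.14, that of H2A was -0.19 in place of -0.47, and all members summed to 863 TPM against 662. The 3 class sums that were lower in CPM rest on 1 gene each. Without Hist1h1b the log2 ratio of the H1 sum was 0.35 in place of -0.67. Without Hist1h2ae that of H2A was 0.37 in place of -0.47, and without Hist1h4d that of H4 was 1.15 in place of -0.14. Accordingly the 3 most abundant members together were 1.90-fold lower (interval 1.82 to 1.99) and the other 64 together 2.07-fold higher (interval 1.98 to 2.17).

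The level of the 3 most abundant members (Hist1h2ae, Hist1h4d and Hist1h1b, the 3 with the highest mean CPM over the 10 libraries) was 304 CPM in wild-type TT2 cells against 159.8 for G9a CM and 152 for the library labelled G9a/GLP DKO, 249 in wild-type J1 cells against 124 for Dnmt3a/3b DKO and 118 for Dnmt1/3a/3b TKO, and 55.2 in the inhibitor control against 73.6, 56.7 and 52.6 at UNC0638 days 2, 4 and 14. That of the other 64 members was 125 CPM in wild-type TT2 cells against 259 for G9a CM and 153 for the library labelled G9a/GLP DKO, 183 in wild-type J1 cells against 134 for Dnmt3a/3b DKO and 196 for Dnmt1/3a/3b TKO, and 59.0 in the inhibitor control against 88.1, 61.6 and 79.4 at UNC0638 days 2, 4 and 14. The 2 groups of genes therefore had different orders: WT TT2 was highest for the first and G9a CM for the second, and the 3 genes were lower in all 4 mutants than in their wild types, at 1.90, 2.00, 2.01 and 2.11-fold in the order G9a CM, library labelled G9a/GLP DKO, Dnmt3a/3b DKO, then Dnmt1/3a/3b TKO. All 4 were lower in summed TPM as well. The first 2 of these folds share WT TT2 and the last 2 share WT J1. Rpph1, the RNA of RNase P, which has no poly(A) tail, moved between libraries as well: it was at 170.0 CPM in wild-type TT2 cells against 34.2 for G9a CM and 126 for the library labelled G9a/GLP DKO, 108 in wild-type J1 cells against 66.0 for Dnmt3a/3b DKO and 90.1 for Dnmt1/3a/3b TKO, and 10.9 in the inhibitor control against 54.6, 20.6 and 26.2 at UNC0638 days 2, 4 and 14. WT TT2 was highest for Rpph1 too, and G9a CM was 4.98-fold lower than WT TT2, while the other 64 members were higher there. Other RNAs without a tail did not all follow Rpph1. In WT TT2, G9a CM and WT J1, Rn7sk was at 2.40, 2.77 and 6.11 CPM and Terc at 1.30, 1.53 and 3.02. Of 5 such RNAs measured in G9a CM against WT TT2, 0 were higher and 2 lower. Of 7 measured in WT J1 against WT TT2, 3 were higher and 0 lower, where 12.5% and 11% of all genes were. Whether capture of RNA without a tail had a part in the levels of the members was not tested.

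**Figure D4:**
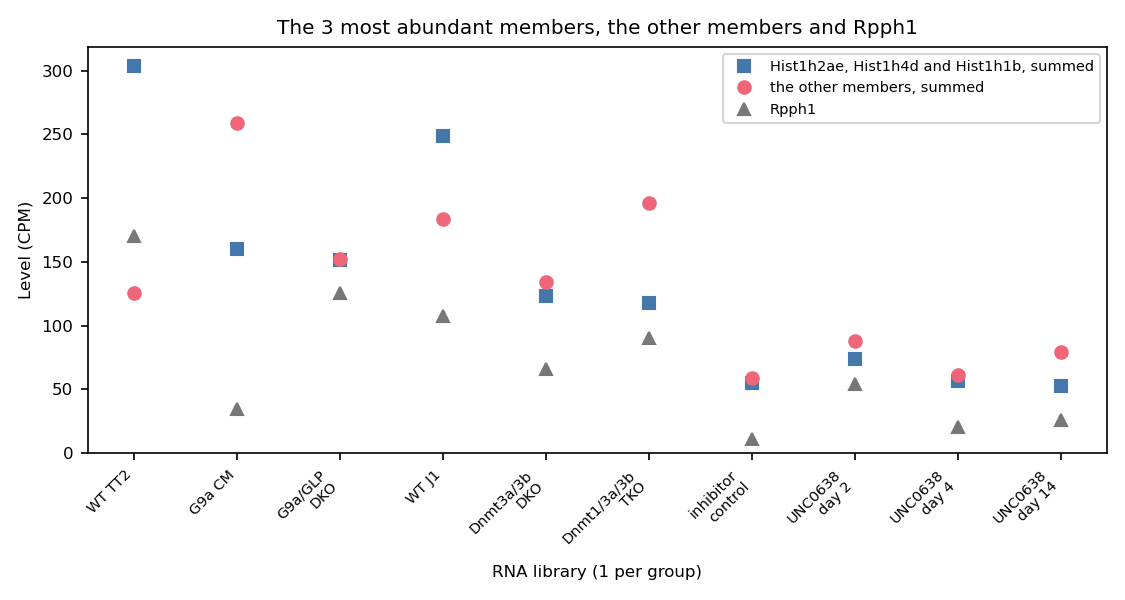
Summed CPM of Hist1h2ae, Hist1h4d and Hist1h1b (squares), of the other 64 members (circles) and of Rpph1 (triangles) in the 10 libraries. The squares lie above the circles in WT TT2 (304 against 125 CPM) and in WT J1, and below them in G9a CM (159.8 against 259 CPM) and Dnmt1/3a/3b TKO.

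In the library labelled G9a/GLP DKO, Hist1h1b and Hist1h2ae were lower than in WT TT2 and 3 H3 genes higher. By the rule, 4 of 38 measured members were higher than in WT TT2 and 3 lower, where 9.77% and 7.09% of all measured genes were, so both shares (10.5% and 7.89%) were near the background. With scaling by the total count the counts were 4 and 1. With deposited TPM they were 10 and 2, against 12.7% and 6.32% of all genes in TPM. The 4 higher members were Hist1h3a (3.77-fold higher, interval 2.03 to 7.23), Hist1h3c (2.92-fold higher, interval 1.86 to 4.62), Hist1h3d (3.27-fold higher, interval 1.87 to 5.84) and Hist1h4i (2.21-fold higher, interval 1.87 to 2.61). The lower ones were Hist1h1b (2.51-fold lower, interval 2.28 to 2.77), Hist1h2ae (2.20-fold lower, interval 2.02 to 2.41) and Hist2h2ac (2.40-fold lower, interval 1.82 to 3.20). Of the 6 measured H3 genes, 3 were measured only through their level in this library (Hist1h3a, Hist1h3d and Hist1h3f), so their direction was fixed by the minimum. The sum over all 12 H3 genes, which no minimum touches, was 2.31-fold higher (interval 1.90 to 2.79). H2B was 1.33-fold higher (interval 1.20 to 1.48), and no single H2B gene passed the rule.

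Set against G9a CM directly, the library labelled G9a/GLP DKO had 0 members higher and 10 of 46 lower, with 6.67% and 2.99% of all measured genes. Hist1h2bm was 3.92-fold lower (interval 2.89 to 5.42), at 3.93 against 15.4 CPM, and Hist1h2bj 3.67-fold lower (interval 2.48 to 5.59). Hist1h3g was 3.74-fold lower (interval 2.35 to 6.21) and Hist1h3c 2.85-fold lower (interval 2.08 to 3.96), Hist1h4n 4.25-fold lower (interval 2.60 to 7.34) and Hist2h4 2.72-fold lower (interval 1.80 to 4.22). The H2A gene Hist1h2ai had 18 counts in G9a CM and 0 here, which is at least 4.49-fold lower against a floor of 3 counts. The 3 most abundant members were 1.05-fold lower (interval 0.993 to 1.12), an interval that includes 1. Both libraries come from clones of 1 parental line, and this comparison shares its libraries with the 2 above.

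**Figure D5:**
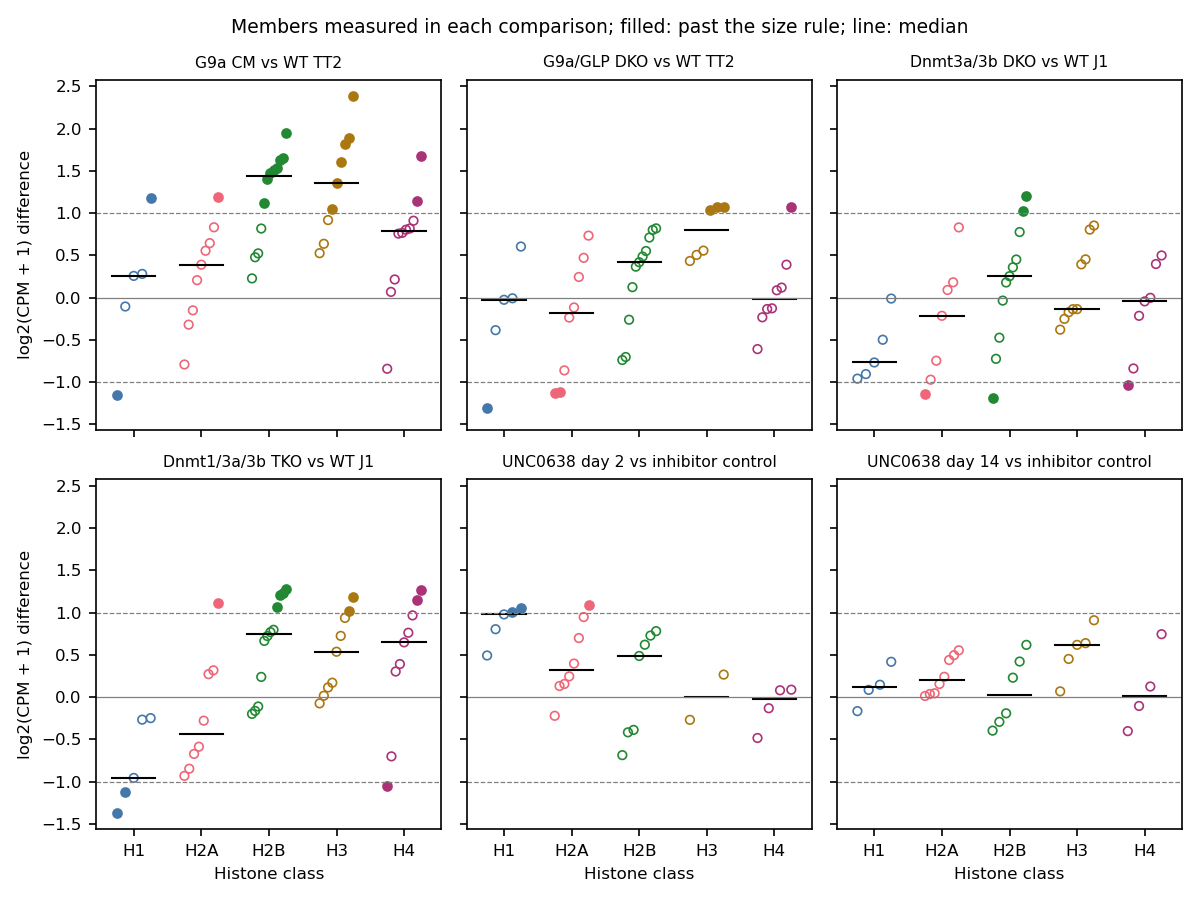
Difference in log2(CPM + 1) of each measured member, by class, in 6 comparisons, with filled points for members past the size rule and a line at each class median. In G9a CM the H2B and H3 medians are 1.44 and 1.35, and in Dnmt1/3a/3b TKO the H1 median is -0.96 and the H2B median 0.74. Members under 1 CPM in 1 library are shown only where they were higher in the other, which raises or lowers these medians.

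In the J1 line, the Dnmt1/3a/3b TKO library had lower levels of Hist1h1a, Hist1h1b and Hist1h4d and higher levels of some H2A, H2B, H3 and H4 genes than WT J1. In Dnmt1/3a/3b TKO, 9 of 43 measured members were higher than in WT J1 and 3 lower, where 11% and 10.6% of all 13924 measured genes were. Only 32 members reached 1 CPM in WT J1, and a member under it there could enter only by being higher. Among the 9, this holds for Hist1h2bj, Hist1h2ag, Hist1h3d and Hist1h2bp, at 0.805, 0.671, 0.873 and 0.470 CPM in WT J1. With scaling by the total count the counts were 11 and 1. With deposited TPM they were 20 and 1, against 17.5% and 6.48% of all genes in TPM. Among H2B genes, Hist1h2bk was 3.30-fold higher (interval 2.03 to 5.61) and Hist1h2bj 3.94-fold higher (interval 2.09 to 8.07). Hist1h3g was 3.31-fold higher (interval 1.95 to 5.89) and Hist1h3d 3.20-fold higher (interval 1.72 to 6.41). Hist1h4n was 3.26-fold higher (interval 2.07 to 5.34) and Hist4h4 2.68-fold higher (interval 1.86 to 3.94). Hist1h2ag, beside Hist1h2bj, was 3.92-fold higher (interval 1.96 to 8.68). Hist1h1b was 2.68-fold lower (interval 2.35 to 3.06), Hist1h1a 2.59-fold lower (interval 1.85 to 3.66) and Hist1h4d 2.10-fold lower (interval 1.93 to 2.30). All 5 measured H1 genes had negative differences, and the H1 sum was 1.99-fold lower (interval 1.82 to 2.17). H3 was 1.76-fold higher (interval 1.48 to 2.09) and H2B 1.11-fold higher (interval 1.03 to 1.19), and without Hist1h2bc the log2 ratio of the H2B sum was 0.84 in place of 0.15.

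Dnmt3a/3b DKO, which retains Dnmt1, had 2 of 39 measured members higher than WT J1 and 3 lower, against 9.24% and 9.89% of all measured genes, so neither share exceeded the background. Total-count scaling gave 2 and 1. Deposited TPM gave 9 and 0, against 15.8% and 6.17% of all genes in TPM. The 2 higher members, Hist1h2bp and Hist1h2bk, were 5.09-fold higher (interval 2.26 to 13.5) and, in turn, 2.76-fold higher (interval 1.66 to 4.75). The lower ones were Hist1h2bc (2.33-fold lower, interval 2.08 to 2.61), Hist3h2a (2.39-fold lower, interval 1.89 to 3.05) and Hist1h4d (2.07-fold lower, interval 1.90 to 2.27). All 5 measured H1 genes had negative differences here too, and the H1 sum was 1.71-fold lower (interval 1.57 to 1.86). The sums of H2A, H2B and H4 were 1.86, 1.57 and 1.76-fold lower, and that of H3 1.27-fold higher (interval 1.05 to 1.53). In summed TPM the H2B direction turned, at 100 against 82.2 in WT J1. Between the 2 mutants, 1 of 43 members was higher in Dnmt1/3a/3b TKO and 0 were lower, with 1.79% and 1.35% of all measured genes. With deposited TPM these were 3 and 2, against 3.30% and 1.84% of all genes in TPM. The higher one was Hist1h3c, 2.91-fold higher (interval 1.80 to 4.87), and the H2B sum was 1.74-fold higher (interval 1.60 to 1.89), most of it from Hist1h2bc (53.7 against 26.5 CPM).

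Members called higher in G9a CM and in Dnmt1/3a/3b TKO can be set side by side, since those comparisons share no library. 7 genes were in both lists: Hist1h2ag, Hist1h2bj, Hist1h2bk, Hist1h2bp, Hist1h3d, Hist1h3g and Hist1h4n. They are 38.9% of the 18 higher in G9a CM and 77.8% of the 9 higher in Dnmt1/3a/3b TKO, and no test of the overlap was made. Over all measured genes, 289 were higher in both, 39.6% of the 729 higher in G9a CM and 18.8% of the 1534 higher in Dnmt1/3a/3b TKO, so the members' share of the first list was near that of all genes. The share of the second list, 77.8% against 18.8%, rests on 9 members. Of the 7 genes, Hist1h2ag, Hist1h2bj, Hist1h2bp and Hist1h3d were under 1 CPM in WT J1, and Hist1h2bp and Hist1h3d also in WT TT2. There they could enter the lists only by being higher. Hist3h2ba and Hist4h4 were in the second list and not in the first. By position, the block of the Hist1 cluster at chr13:21715711-22043658 had 8 of 13 measured members higher in G9a CM and 5 of 11 in Dnmt1/3a/3b TKO. The block at chr13:23531044-23934913 had 8 of 24 and 2 of 24, beside 5.4% and 11% of all genes, and the difference between the blocks was not tested. A member under 1 CPM in the wild type could enter only by being higher, and the blocks differ in this. In WT TT2 and WT J1, 8 and 5 members of the first block reached 1 CPM, and 16 and 20 of the second. In G9a CM, 2 of 5 measured members of the Hist2 cluster (chr3:96219885-96270192) were higher, Hist2h2be and Hist2h2bb, and neither Hist3 member nor Hist4h4 passed the rule.

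Under UNC0638 the members that passed the rule were Hist1h2ab, Hist1h1e and Hist1h1a on day 2, Hist1h2ab on day 4 and none on day 14. On day 2, 3 of 26 measured members were higher than in the inhibitor control and 0 lower, where 3.12% and 1.84% of all measured genes were. Total-count scaling gave 6 and 0. Deposited TPM gave 16 and 1, against 6.38% and 1.94% of all genes in TPM. The 3 were Hist1h2ab (2.46-fold higher, interval 1.76 to 3.48, 8.30 against 3.38 CPM), Hist1h1e (2.28-fold higher, interval 1.66 to 3.19) and Hist1h1a, which rests on 27 against 2 counts. The sum over all members was 1.42-fold higher (interval 1.33 to 1.51), and the H1 sum 1.92-fold higher (interval 1.68 to 2.20), on day 2, when Rpph1 was 4.99-fold higher. On day 4, 1 of 22 members was higher and 0 were lower, with 1.95% and 0.671% of all genes. That member was again Hist1h2ab, 2.41-fold higher (interval 1.71 to 3.44). With deposited TPM the day 4 counts were 7 and 2, against 3.34% and 1.55% of all genes in TPM. On day 14, 0 of 27 were higher and 0 lower, with 2.92% and 0.535% of all genes. With deposited TPM the day 14 counts were 10 and 0, against 4.57% and 1.49% of all genes in TPM. Hist1h2ab was then at 5.42 CPM, 1.61-fold higher (interval 1.11 to 2.35), short of the rule. The 3 days share 1 control library. The 12 H3 members together were at 7.63, 6.06 and 10.1 CPM on days 2, 4 and 14, against 6.76 in the control, and the intervals of the fold were 0.866 to 1.48, 0.670 to 1.20 and 1.15 to 1.96.

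The control libraries also differed from one another. In the inhibitor control, 0 of 33 members were higher than in WT TT2 and 13 lower, where 25.2% and 22% of all measured genes were. With deposited TPM the counts were 6 and 14, against 28.6% and 17.2% of all genes in TPM. Only 21 members reached 1 CPM in the inhibitor control, and a member under it there could enter only by being lower. Hist1h1b was 8.18-fold lower (interval 6.98 to 9.63), Hist1h2ae 6.47-fold lower (interval 5.65 to 7.44) and Hist1h4d 3.66-fold lower (interval 3.28 to 4.10). The H1 sum was 5.78-fold lower (interval 5.13 to 6.53) and the H3 sum 1.19-fold lower (interval 0.924 to 1.54), an interval that includes 1. With summed TPM the log2 ratio of H3 turned to 0.38 from -0.25. Without Hist1h1b the log2 ratio of the H1 sum was -1.51 in place of -2.53. With the inhibitor control in place of WT TT2, 30 members were higher in G9a CM and 0 lower, and for the library labelled G9a/GLP DKO 17 and 1. With WT J1 in its place the counts were 17 and 1, and 5 and 5, in the same order. For these swapped controls no share over all genes was computed, so the counts have no background beside them. A member under 1 CPM in the swapped control could enter only by being higher in the mutant. WT J1 itself had 5 of 36 members higher than WT TT2 and 3 lower, with 12.5% and 11% of all measured genes. Total-count scaling gave 3 and 4. Deposited TPM gave 1 and 9, against 8.56% and 19.2% of all genes in TPM. Hist1h2bc was 3.86-fold higher (interval 3.43 to 4.35) in WT J1, Hist3h2a 2.52-fold higher (interval 2.04 to 3.12), Hist2h2ac 5.53-fold lower (interval 3.83 to 8.23) and Hist1h2bm 6.10-fold lower (interval 3.37 to 12.1). In the inhibitor control, also wild-type TT2, Hist1h2bm was at 1.18 CPM, nearer to WT J1 (0.805) than to WT TT2 (4.92).

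Genes that transcribe, process or handle histone messages and proteins are given beside the shares of all measured genes in G9a CM, 5.4% higher and 5.07% lower. Of 24 genes of histone mRNA processing and transcription, 1 was higher (Zfp473, a component of the U7 complex that cuts histone pre-mRNA, 2.25-fold higher) and 1 lower (Lsm1, of the decay pathway, 2.64-fold lower). Slbp, which encodes the stem-loop binding protein, was at 367 CPM against 412, and Npat, the co-activator of histone gene transcription, at 33.8 against 35.9. Of 16 histone chaperone genes 0 were higher and 1 lower (Asf1b, 2.58-fold lower). Of 29 S-phase genes 1 was higher (Mcm7, 2.06-fold higher) and 0 were lower. Of 10 measured replication-independent histone genes 2 were higher and 0 lower: H2afx was 2.56-fold higher and H2afy2 2.24-fold higher, while H3f3b and H3f3a, which encode the H3 form used outside S phase, were 1.52-fold lower and 1.24-fold lower, short of the rule. Of 5 measured RNAs without a poly(A) tail, 0 were higher and 2 lower (Rpph1 and Rprl3).

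In Dnmt1/3a/3b TKO, where 11% of all measured genes were higher and 10.6% lower, 1 of 24 processing genes was higher (Srrt, 2.34-fold higher) and 0 were lower, 4 of 29 S-phase genes were higher and 1 lower, and 1 of 9 replication-independent histone genes was higher and 2 lower. The S-phase genes included Ccne1 (3.18-fold higher), which encodes cyclin E, whose kinase activates NPAT, and Pola1 (3.56-fold lower), a subunit of DNA polymerase alpha. H3f3a was 2.41-fold lower. In Dnmt3a/3b DKO, beside 9.24% and 9.89% of all genes, 1 processing gene was higher and 1 lower (Lsm10, a U7 component, 2.43-fold lower), and 3 S-phase genes were higher and 1 lower. In the inhibitor control, against WT TT2, where 25.2% of all measured genes were higher and 22% lower, 9 of 24 processing genes were higher and 4 lower, 6 of 16 chaperone genes higher and 3 lower, 14 of 29 S-phase genes higher and 6 lower, and 0 of 5 RNAs without a tail higher and 4 lower. Pold1 was 15.8-fold higher and H2afx 9.32-fold higher there, whereas Casp8ap2 (FLASH), needed for histone mRNA processing, was 3.42-fold lower and Rpph1 15.5-fold lower. The 13 lower members in that library thus stood beside 14 higher S-phase genes, and the part of cell cycle state in the members' levels was not tested.

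The posterior standard deviation that RSEM reports for each count measures how firmly shared reads could be assigned. It was 0 for 334 of the 399 member values with at least 10 counts (83.7%), and at most 11.2% of the count, for Hist2h3c1 on day 2 of UNC0638. After Hist2h3c1, the members with the largest were Hist3h2a (8.57%), Hist2h2bb (5.88%) and Hist1h2af (5.81%). For class sums it was at most 1.51%. This measure does not cover reads left uncounted.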

How the data were processed

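Of 130 samples, the 10 RNA libraries entered and the remaining 120 were not analysed here. The submitters' processing notes name STAR 2.5.3a, RSEM and the build GRCm38 (mm10). No annotation release or strand setting is given in the sources used here. Expected counts, as deposited, in which RSEM shares out reads matching several genes, were rounded to whole numbers. The authors also deposited TPM, scaled for effective length and library total per the file headers, with the posterior SD of every count. CPM used TMM factors from edgeR 4.0.16 over the 15906 genes at 1 CPM or more in at least 1 library. Python 3.11.15, SciPy 1.17.1 and R 4.3.3 did the rest. With 1 library per group there was no test: members were called by size (log2 difference of at least 1 with a pseudocount of 1 CPM, 1 CPM in either library, exact 95% interval of the count ratio excluding 1). The rule was run on simulated counts with counting error only, in which the genes given a change were at 10 CPM or more. Most members lay below that, so the simulation does not show how the rule performs for them. Where a library had 0 counts, a floor of 3 counts was used. Named members were the 3 of each class with the highest mean CPM, and per comparison up to 2 called members of each class and direction with the largest difference, well resolved ones first (at least 10 counts and a posterior standard deviation of at most 25% of the count in both libraries), plus up to 4 of each pathway list; Slbp and Npat, Hist1h2bp and the other members of short lists were named after their values were seen. The members, lists and rules were chosen with earlier results of these data known. Alternatives were total-count scaling, DESeq2 1.42.0 size factors, deposited TPM, no minimum and well resolved members only. Gene spans and promoters came from RefSeq (GRCm38.p6), and names from a table pairing gene IDs with symbols.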

Additional observations from a re-analysis of the deposited data

How the results depend on the processing

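No paired analysis was possible because each RNA group holds 1 library, and none could be left out. 111 of 140 recomputed counts of higher or lower members stayed within 1.5 times, and none of the DESeq2 counts moved further. The 111 include 22 no-minimum counts that could not move, because 2 levels under 1 CPM cannot differ by 1 in log2(CPM + 1). With deposited TPM and no interval, 30 (in place of 18) were higher for G9a CM, 0 (in place of 1) were lower for G9a CM, 10 (in place of 4) were higher for the library labelled G9a/GLP DKO against WT TT2 and 9 (in place of 2) were higher for Dnmt3a/3b DKO. With the same values, 0 (in place of 3) were lower for Dnmt3a/3b DKO, 20 (in place of 9) were higher for Dnmt1/3a/3b TKO, 1 (in place of 3) were lower for Dnmt1/3a/3b TKO and 3 (in place of 1) were higher for Dnmt1/3a/3b TKO against Dnmt3a/3b DKO. With the same values, 2 (in place of 0) were lower for Dnmt1/3a/3b TKO against Dnmt3a/3b DKO, 16 (in place of 3) were higher for UNC0638 day 2, 1 (in place of 0) were lower for UNC0638 day 2 and 7 (in place of 1) were higher for day 4. With the same values, 2 (in place of 0) were lower for day 4, 10 (in place of 0) were higher for day 14, 6 (in place of 0) were higher for the inhibitor control against WT TT2 and 1 (in place of 5) were higher for WT J1 against WT TT2. With the same values, 9 (in place of 3) were lower for WT J1 against WT TT2. With the inhibitor control as the control (chosen after seeing the data), 30 (in place of 18) were higher for G9a CM, 0 (in place of 1) were lower for G9a CM, 17 (in place of 4) were higher for the library labelled G9a/GLP DKO against WT TT2 and 1 (in place of 3) were lower for the library labelled G9a/GLP DKO against WT TT2. With scaling by the total count, 1 (in place of 3) were lower for the library labelled G9a/GLP DKO against WT TT2, 1 (in place of 3) were lower for Dnmt3a/3b DKO, 1 (in place of 3) were lower for Dnmt1/3a/3b TKO and 6 (in place of 3) were higher for UNC0638 day 2. With the same values, 3 (in place of 5) were higher for WT J1 against WT TT2. With WT J1 as the control (chosen after seeing the data), 5 (in place of 3) were lower for the library labelled G9a/GLP DKO against WT TT2. No share over all genes was computed for the swapped controls. With only well resolved members, 1 (in place of 2) were higher for Dnmt3a/3b DKO. With TMM over all genes (chosen after seeing the data), 3 (in place of 5) were higher for WT J1 against WT TT2. Total-count scaling moved the median of all measured genes by -0.11 to 0.20 (log2) and TPM by -0.35 to 0.33, and with TPM 1.49% to 28.6% of all genes passed the fold in 1 direction. For G9a CM against WT TT2 the TPM shares of all genes were 7.65% higher and 4.95% lower. No called member and no class sum past a log2 ratio of 1 changed sign under these scalings. Of the recomputed class sums, 131 stayed inside the counting interval and 89 did not. Of the 89, 38 came with summed TPM, 31 without the member with the highest summed count and 20 with total-count scaling. Some smaller sums turned in TPM: H4 was at 111 in Dnmt1/3a/3b TKO against 100 in WT J1 (77.2 against 113 CPM). It was at 162 in the library labelled G9a/GLP DKO against 139 in WT TT2 (102 against 122 CPM). Depth limits members under 0.236 CPM, the highest floor, and 12 of 67 members never reached 10 counts.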

Other observations

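The H3 class holds genes for 2 protein forms. The 4 genes that encode the form H3.1 (Hist1h3a, Hist1h3g, Hist1h3h and Hist1h3i) summed to 2.48 CPM in wild-type TT2 cells against 14.1 for G9a CM and 5.59 for the library labelled G9a/GLP DKO, 3.49 in wild-type J1 cells against 6.16 for Dnmt3a/3b DKO and 7.12 for Dnmt1/3a/3b TKO, and 1.62 in the inhibitor control against 1.98, 1.25 and 2.26 at UNC0638 days 2, 4 and 14. The 8 genes of H3.2 summed to 5.55 CPM in wild-type TT2 cells against 26.98 for G9a CM and 12.9 for the library labelled G9a/GLP DKO, 9.73 in wild-type J1 cells against 10.6 for Dnmt3a/3b DKO and 16.1 for Dnmt1/3a/3b TKO, and 5.14 in the inhibitor control against 5.65, 4.81 and 7.88 at UNC0638 days 2, 4 and 14. Both forms were highest in G9a CM, 5.68-fold (interval 4.29 to 7.63) and 4.87-fold (interval 4.02 to 5.92) above WT TT2, and the intervals overlap. In Dnmt3a/3b DKO, H3.1 was 1.76-fold higher than in WT J1 (interval 1.25 to 2.51), while the interval for H3.2 (0.868 to 1.36) includes 1, and the 2 intervals overlap.

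Hist1h1t, Hist1h2aa and Hist1h2ba, known mainly from the testis, stayed under 1 CPM each in all 10 libraries. Their sum was 1.22 CPM in wild-type TT2 cells against 1.18 for G9a CM and 0.630 for the library labelled G9a/GLP DKO, and 0.537 in wild-type J1 cells against 0.777 for Dnmt3a/3b DKO and 0.767 for Dnmt1/3a/3b TKO. The intervals of the fold of the 4 mutants against their wild types include 1, at 0.522 to 1.75 for G9a CM and 0.559 to 3.93 for Dnmt1/3a/3b TKO. In these 4 comparisons no difference was detectable at this depth. In WT J1 the sum was 2.27-fold lower than in WT TT2 (interval 1.02 to 5.72). In the inhibitor series it was 0 counts in the control and 7, 3 and 0 counts on days 2, 4 and 14, against 31 counts in WT TT2, and the upper bound of the fold of the control against WT TT2 was 0.236.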
